A study of Arabidopsis thaliana with 6 samples.

Results

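The growth-regulating factors GRF1 to GRF9 and their co-activator GIF1 were examined for binding by JAGGED (JAG), a zinc finger transcription factor of Arabidopsis thaliana needed for the outgrowth of leaves, sepals and petals. The 10 genes were chosen by their locus codes, and every JAG peak whose summit lay in a gene or within 3000 bp of it was taken. The 14-3-3 genes that carry the same GRF symbols were not meant. All 10 loci were among the 27444 nuclear protein-coding genes of the gene table, and 33 of the 6890 listed peaks met the rule. Of these, 12 of 2620 were in the list of replicate 1, 10 of 2143 in that of replicate 2 and 11 of 2127 in that of replicate 3.

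Chromatin bound by JAG was recovered with anti-GFP beads from inflorescence tips with only unopened buds. The tagged plants were jag-2 mutants that carried JAG:JAG-GFP, a genomic JAG fusion to the green fluorescent protein, and the control plants were wild-type L-er, which has no tag. Each group had 3 samples, numbered as replicates, and the age of the plants was not given in the sources used here. Whether the replicates are separate plantings is not stated, and their spread may be technical. One peak list per replicate number was analysed. Depth is unknown without the reads, and a gene without a peak is only a gene with no listed peak.

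GRF proteins are plant transcription factors that pair a QLQ domain, which binds GIF co-activators, with a WRC domain, which binds DNA. GIF1, also named ANGUSTIFOLIA 3 (AN3), has no DNA-binding domain of its own and brings GRF proteins together with SWI/SNF chromatin remodellers. Together they keep cells of young leaves and floral organs dividing, and loss of GIF1 gives small, narrow leaves and petals. The microRNA miR396 cuts the transcripts of most GRF genes, whereas those of GRF5 and GRF6 lack its site.

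JAG peaks lay at most genes of this group. Of the 10, 7 had a peak in each of the 3 lists, namely GIF1, GRF3, GRF4, GRF5, GRF6, GRF8 and GRF9. Over all 25680 protein-coding genes that could have a peak in every list, 6.73% did. GRF1 and GRF7 had a peak only in the list of replicate 1, and GRF2 had none. At least 1 list had a peak at 9 of the 10, against 25.9% of all genes. By list, 9, 7 and 7 of the 10 had a peak in replicates 1, 2 and 3, against 17.0%, 13.8% and 14.6% of all genes. No test was made on these counts, because the genes were chosen with results of these lists known. None of the 10 lies on chromosome 1, so they are not touched by the lack of replicate 3 peaks beyond base 23827070 of that chromosome.

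**Figure D1:**
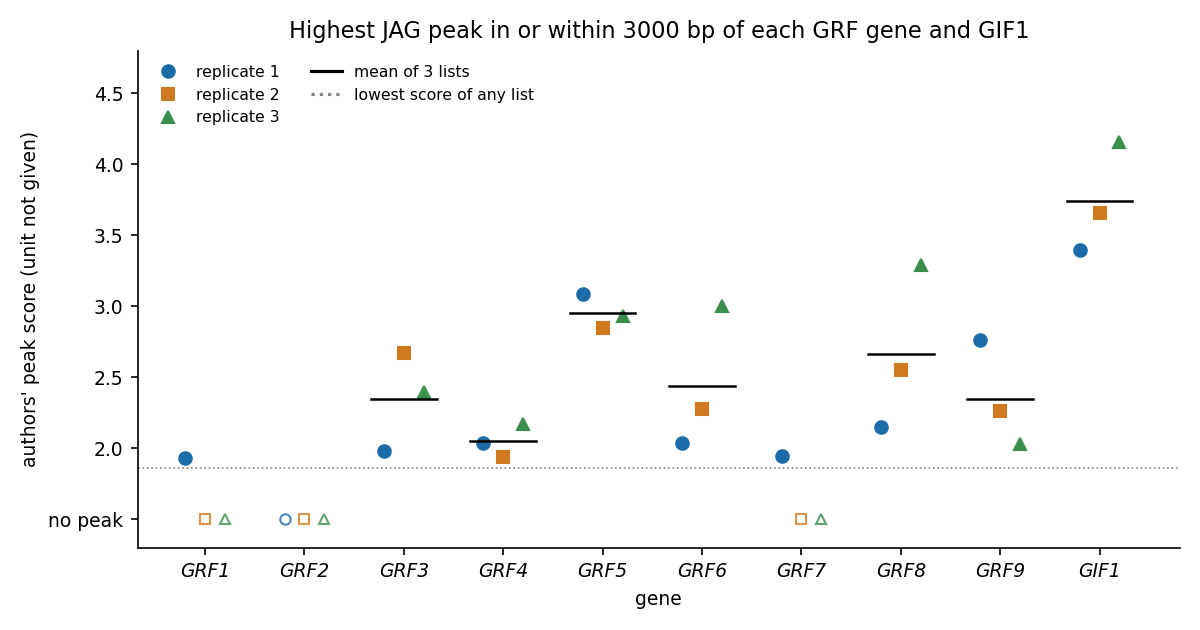
The highest JAG peak in or within 3000 bp of each of the 10 genes is plotted as the authors' score (vertical axis, unit not given) for replicates 1, 2 and 3. Black lines are means of 3 lists, open symbols mark lists with no peak, and the dotted line is the lowest score of any list (1.86). GIF1 has the highest mean (3.74), GRF5 is next (2.96), and GRF1 and GRF7 have a point from replicate 1 alone.

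All scores are values deposited by the authors on a scale that is not stated. Each score is therefore set beside the share of peaks in the same list that scored lower. Ranks count from the highest score, and equal scores share the better rank. By the mean of the highest score in each list, the order was GIF1 (3.74 ± 0.39), GRF5 (2.96 ± 0.12), GRF8 (2.66 ± 0.58), GRF6 (2.44 ± 0.50), GRF3 and GRF9 (2.35 ± 0.35 and 2.35 ± 0.37) and GRF4 (2.05 ± 0.12; all SD, n = 3 lists). These means assume that the 3 lists share a scale. At GRF3 and GRF9 the highest peaks of the lists did not all come from the same site. The means and SDs of these genes therefore mix sites. Taken by shared region, the GRF9 means were 2.25 ± 0.45 and 2.12 ± 0.13 (SD, n = 3 lists). GIF1 stood clear of its neighbour in this order, since its lowest score (3.40) was above the highest of GRF5 (3.09). Every other pair of neighbours overlapped in range over the lists, although GRF8 scored above GRF6 in 3 of 3 lists. The mean share of lower-scoring peaks gave nearly the same order, from 97.9% for GIF1 and 92.1% for GRF5 to 39.9% for GRF4, with GRF9 (66.0%) just above GRF3 (64.2%).

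**Figure D2:**
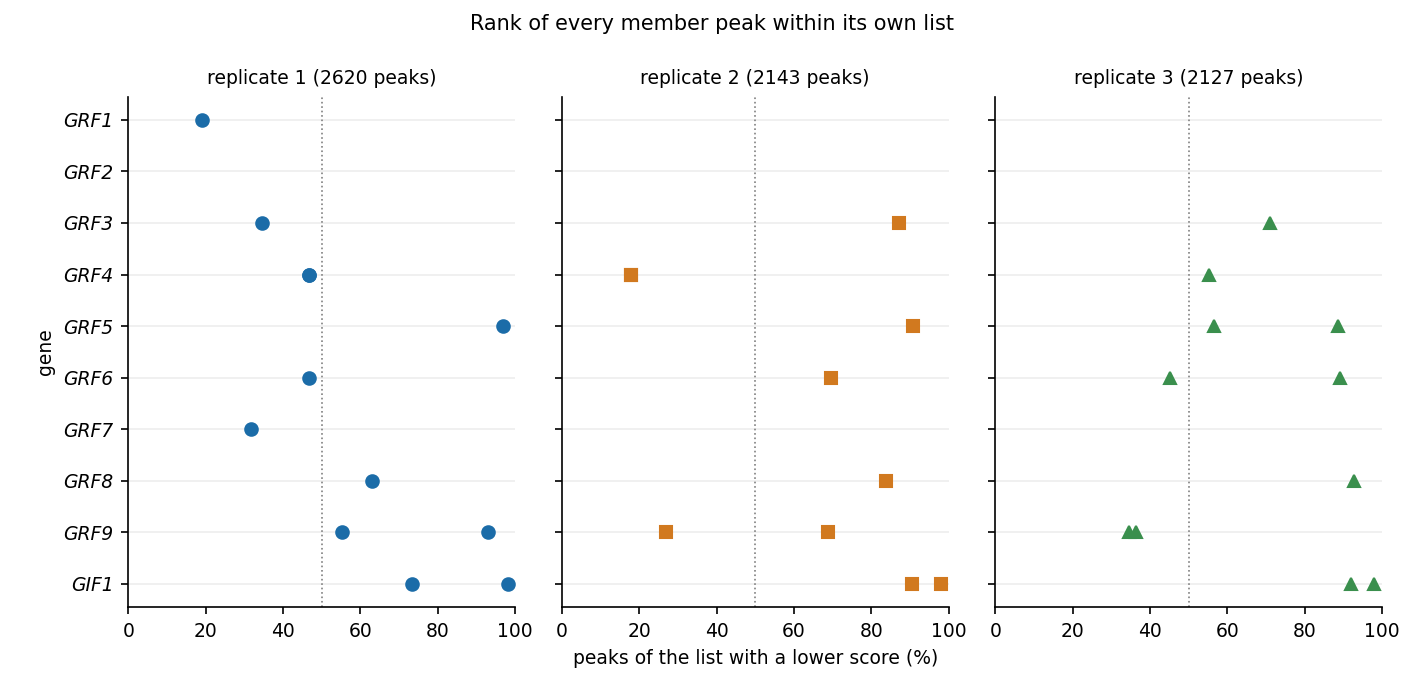
Each symbol is 1 peak at 1 of the 10 genes, placed by the percentage of peaks in its own list with a lower score (horizontal axis), with 1 panel per replicate and the dotted line at 50%. Both GRF4 peaks of replicates 1 and 2 have equal scores and lie on top of each other. The higher GIF1 peak sits at 97.9% or above in each panel, while GRF4 does not pass 55.3%.

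The co-activator gene GIF1 (AT5G28640) carried the strongest site of the group. In replicate 1 the peak ran on chromosome 5 from 10648309 to 10649191 and scored 3.40, in replicate 2 from 10648598 to 10649127 with 3.66, and in replicate 3 from 10648549 to 10649228 with 4.16. These were the peaks of rank 49, 45 and 43 in the 3 lists, so the place within the list hardly moved. All 3 summits lay inside the gene, within 77 bp of each other (10648897, 10648873 and 10648820). Peaks of the 3 lists that overlap by at least 1 bp were merged into regions, and 869 regions held a peak of every list. The GIF1 region ranked 38th of these by mean score, and 0.903% of all genes had such a shared summit inside the gene.

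A separate site lay at one end of the same gene. It scored 2.26, 2.84 and 3.20 in replicates 1, 2 and 3 and ran in replicate 1 from 10649785 to 10650322. Its summit was inside the gene in replicates 2 and 3 and less than 500 bp outside it in replicate 1. The summits of the pair were 1219, 1134 and 1124 bp apart in replicates 1, 2 and 3, so the lists placed both sites alike. Its mean score was 2.77 ± 0.47 (SD, n = 3 lists), rank 197 of the 869. In every list the site nearer the middle of the gene scored higher than this one. Both were compact, at 495 to 883 bp, against median peak widths of 1032.5, 982 and 976 bp in the lists. No other protein-coding gene lay within 3000 bp of any of these 6 summits.

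Holding more than 1 shared region was uncommon: 0.409% of all genes had at least 2 of them in the gene or within 3000 bp. GIF1 and GRF9 both did.

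GRF5 and GRF6, the GRF genes outside miR396 control, both had a shared region, in each case outside the gene. GRF5 (AT3G13960) promotes cell proliferation in leaves. Its chromosome 3 peaks scored 3.09 in replicate 1 (4606001 to 4608884), 2.85 in replicate 2 (4605774 to 4608502) and 2.93 in replicate 3 (4606442 to 4608554). The scores lay close together, at ranks 79, 196 and 243. The peaks were broad, at 2884, 2729 and 2113 bp, wider than 96.6%, 97.3% and 91.8% of the peaks in their lists. The summits (4606792, 4606915 and 4606911) lay between AT3G13950 and GRF5, more than 1000 bp from GRF5, and all 3 intervals reached into the GRF5 gene. The summits of replicates 2 and 3 were nearer to GRF5, and that of replicate 1 was nearer to AT3G13950, so the site sits about midway between the genes. The list of replicate 3 alone held another GRF5 peak, on the opposite side of the gene, with a score of 2.20 (4611274 to 4611874).

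GRF6 (AT2G06200) had peaks on chromosome 2 from 2427244 to 2428330 in replicate 1, from 2427275 to 2428177 in replicate 2 and from 2427392 to 2428423 in replicate 3. They scored 2.04, 2.28 and 3.00. The summits agreed within 89 bp, whereas the share of lower-scoring peaks spread from 46.6% in replicate 1 to 89.1% in replicate 3. They lay between GRF6 and ELF8, which encodes a subunit of the PAF1 complex of transcription elongation, and were nearer to GRF6. The list of replicate 3 also held a narrow peak of 274 bp on the other side of GRF6, with a score of 2.10.

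Of the 7 GRF genes with a miR396 site, 4 had a peak in every list (GRF3, GRF4, GRF8 and GRF9) and 3 had a shared region (GRF4, GRF8 and GRF9). GRF8 (AT4G24150) was the only GRF gene whose shared summit lay inside the gene. Its peaks on chromosome 4 scored 2.15 in replicate 1 (12535175 to 12537157), 2.55 in replicate 2 (12536190 to 12537167) and 3.29 in replicate 3 (12536351 to 12537198). The widths of these peaks were 1983, 978 and 848 bp. The summits (12536640, 12536787 and 12537092) were spread over 452 bp, more than in 82.0% of the shared regions, although each lay in the gene.

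GRF9 (AT2G45480), reported to restrict leaf growth, had 2 shared regions, and neither is closest to GRF9. The farther one, on chromosome 2, scored 2.76, 1.95 and 2.03 in replicates 1, 2 and 3, with summits at 18742533, 18742563 and 18742536. The nearer one scored 2.09, 2.26 and 2.01, with summits at 18744162, 18744234 and 18744206. The summits of each region fell within 30 bp and 72 bp of each other, and the pair was 1629, 1671 and 1670 bp apart. All 6 summits lay inside FLA8, which encodes a fasciclin-like arabinogalactan protein of the cell surface. The list scores disagreed on which site was higher, since replicates 1 and 3 gave the farther site the higher score and replicate 2 the nearer one. Of these 6 peaks, only the nearer one of replicate 1 reached into GRF9 (18743903 to 18745686).

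GRF4 (AT3G52910) acts with GRF1 to GRF3 in leaf growth and had the weakest recurrent signal of the group. On chromosome 3, replicate 1 listed peaks from 19619013 to 19619639 and from 19619755 to 19621737, both with a score of 2.04. Replicate 2 listed peaks from 19619257 to 19620592 and from 19620808 to 19621760, both with 1.94, and replicate 3 a single peak from 19618861 to 19619632 with 2.17. They formed 1 merged region of 5 peaks that ranked 790th of 869. All 5 summits were spread over 1924 bp. With 1 summit per list, the one at the lower position where scores tied, the range was 976 bp, more than in 90.8% of the shared regions. GRF4 was nonetheless the nearest protein-coding gene to every one of these summits, and no other lay within 3000 bp.

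GRF3 (AT2G36400), which promotes leaf cell proliferation, had a peak in every list but no region common to all 3. Replicate 2 (15274566 to 15275427, score 2.67) and replicate 3 (15274844 to 15275425, score 2.40) placed summits 21 bp apart on chromosome 2, at 15275221 and 15275200. Replicate 1 had no peak there and instead listed one from 15275759 to 15277046 with a score of 1.98. That summit was just inside the 3000 bp limit but nearer to AT2G36410 than to GRF3. It was the only GRF3 peak counted in replicate 1. The overlapping peak of replicate 3 (15275767 to 15276679, score 2.23), also nearer to AT2G36410, had its summit just outside the limit and was not counted. The GRF3 neighbourhood thus holds adjacent sites of 2 lists each, the first from replicates 2 and 3 and the other from replicates 1 and 3.

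**Figure D3:**
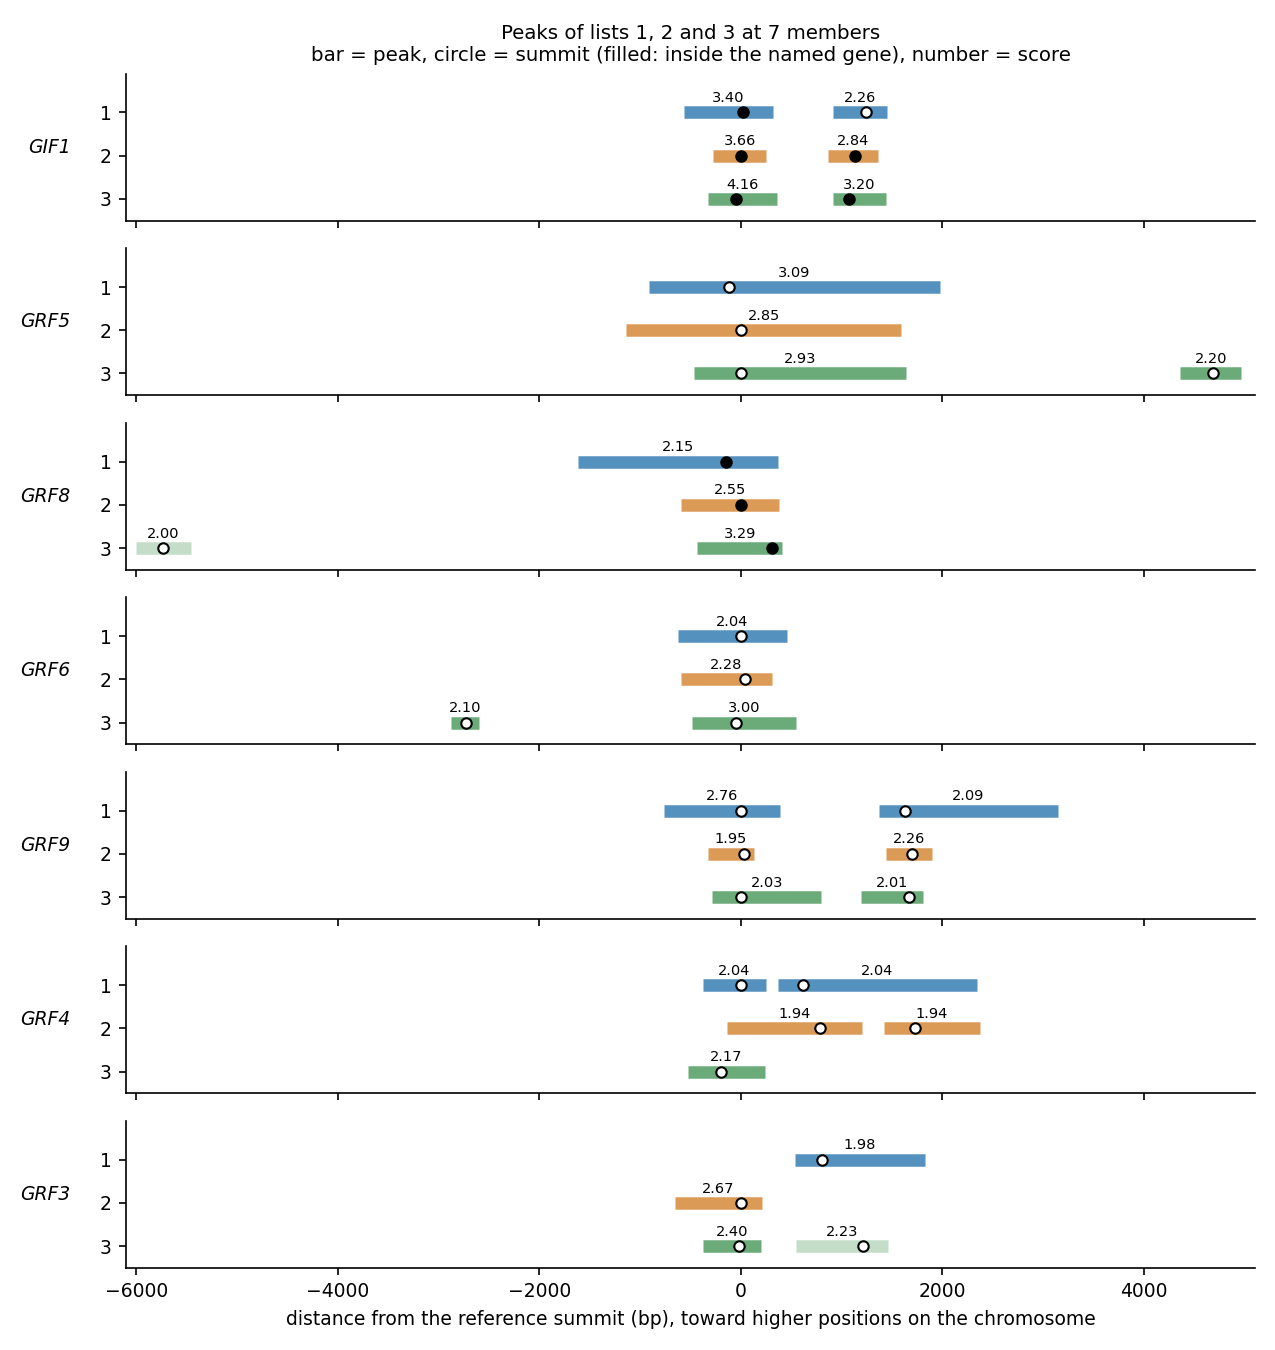
Peaks of lists 1, 2 and 3 (bars) at GIF1, GRF5, GRF8, GRF6, GRF9, GRF4 and GRF3 are drawn by distance in bp from the median summit of the highest shared region (for GRF3, of all its counted peaks). Circles are summits, filled where the summit is inside the named gene, numbers are scores, and pale bars have summits beyond 3000 bp. GIF1 and GRF9 show paired sites aligned between lists, GRF5 a broad peak in every list and a small one in replicate 3, GRF4 peaks whose summits are spread out, and GRF3 adjacent sites of 2 lists each.

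GRF1, GRF2 and GRF7 had no recurrent peak. GRF1 (AT2G22840), a regulator of leaf growth, had 1 peak, in replicate 1 (chromosome 2, 9731113 to 9731881). It scored 1.93, and 19.0% of that list scored lower. Its summit lay inside bZIP6, the adjoining gene, within 500 bp of GRF1, and the peak reached into GRF1. GRF7 (AT5G53660), a repressor of the osmotic stress gene DREB2A, had 1 peak, also in replicate 1 (chromosome 5, 21792977 to 21793915), which scored 1.95, and 31.8% of that list scored lower. The lowest score of the list was 1.86. GRF2 (AT4G37740), which acts with GRF1 and GRF3 in leaf growth, had no summit within 5000 bp in any list.

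Most of the 33 peaks were outside the genes, and no matching split was taken over all listed peaks. In all, 8 summits lay inside the named gene, 3 outside within 500 bp, 5 between 500 and 1000 bp and 17 between 1000 and 3000 bp. The named gene was the nearest protein-coding gene for 24 of the 33, and 7 summits lay inside another gene, 6 of them in FLA8. A nearby summit does not show which gene a site acts on, and the gene table gives no strand, so upstream and downstream were not told apart. Of the 33 peaks, 26 belonged to a region of all 3 lists, 3 to a region of 2 lists and 4 to a region of 1 list. In replicates 1, 2 and 3, 9 of 12, 9 of 10 and 8 of 11 were in a region of all 3 lists. Over all listed peaks the counts were 928 of 2620, 945 of 2143 and 940 of 2127. These totals keep the peaks of replicates 1 and 2 past base 23827070 of chromosome 1, where replicate 3 has none. Such peaks cannot be in a region of all 3 lists, which lowers the shares of replicates 1 and 2. None of the 10 genes lies on that chromosome. Shared regions were found at 6 of the 10 genes, against 6.24% of all genes.

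Agreement on the summit position varied among the 8 shared regions. Taking the highest peak of each list, and of equal scores the one at the lower position, the range of the 3 summits was 30 and 72 bp at GRF9, 77 and 172 bp at GIF1, 89 bp at GRF6, 123 bp at GRF5, 452 bp at GRF8 and 976 bp at GRF4, where replicates 1 and 2 each had a tie. The median over all 869 shared regions was 118 bp. Thus 4 of the 8 lay under that median and 4 above it. The score was highest in the list of replicate 3 in 5 of the 8, against 55.9% of all shared regions, which is close to the background.

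**Figure D4:**
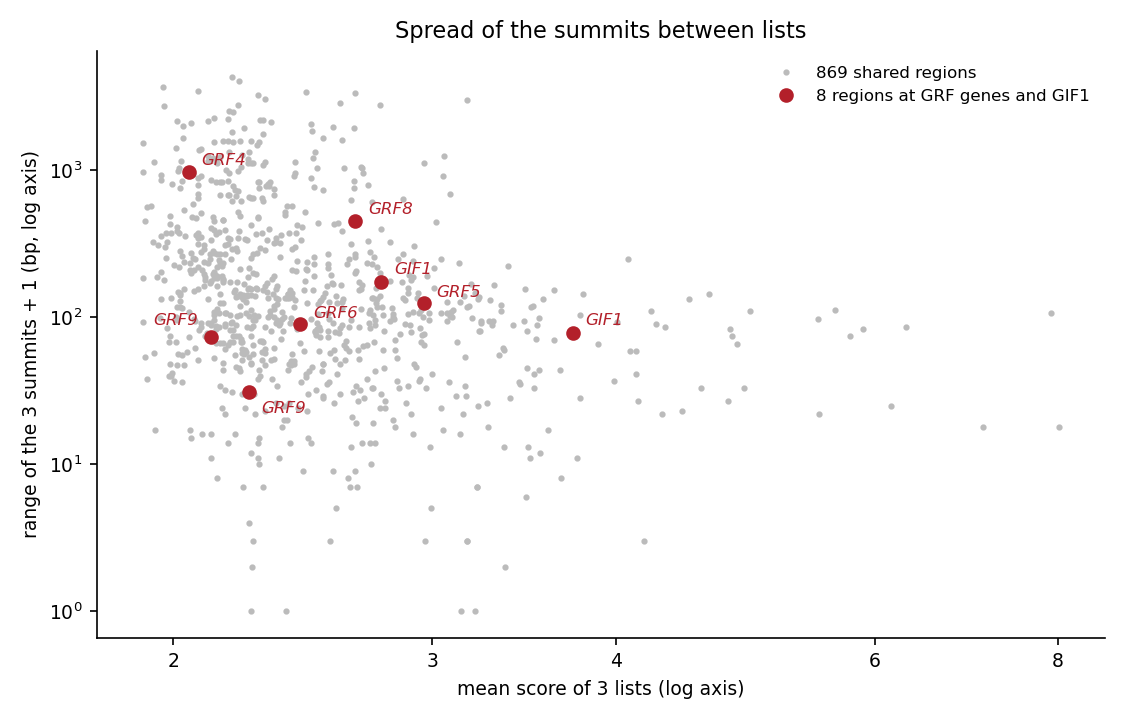
Each grey point is 1 of 869 regions found in all 3 lists, by its mean score (horizontal, log axis) and the range of its 3 summits, 1 per list and the lower position where scores tied, plus 1 bp (vertical, log axis), with the 8 regions at GRF genes and GIF1 in red. GRF4 and GRF8 lie high, at 976 and 452 bp, while the stronger GIF1 region has a range of 77 bp.

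The regions most like the strongest sites were found by the distance between their 3 shares of lower-scoring peaks, over 3 lists and 861 other shared regions. For GIF1 they had AT4G30940 (scores 3.51, 3.49 and 4.01), AT5G35405 (3.61, 3.96 and 4.46) and HAT2 (3.17, 3.78 and 4.34) as their nearest protein-coding genes, at 0.821, 0.882 and 0.893 percentage points. For GRF5 they were AT5G14700, the HAM1 gene of the HAIRY MERISTEM family, and AT5G10150, at 1.43, 2.85 and 2.94 percentage points. The GIF1-like region nearest to AT5G35405 was the one at MIR396B described next.

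The other genes of the GRF and GIF module were taken from a list of 22 that covered GIF2 and GIF3, miR396 and miR319 genes, the miR319-controlled TCP genes, SWI/SNF subunits, ANT and reported targets of GIF1 and GRF7. Peaks in every list were found at 5 of the 22 (GIF3, MIR396B, TCP2, TCP4 and CRF2), against 6.73% of protein-coding genes and 8.91% of 303 miRNA genes. At least 1 list had a peak at 14 of the 22, against 25.9% of protein-coding genes, and at the other 8 no list had one.

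MIR396B (AT5G35407), 1 of the 2 genes that encode miR396, had a higher score in each list than any of the 10 members. It scored 3.61 in replicate 1 (chromosome 5, 13611847 to 13613146), 3.96 in replicate 2 (13612422 to 13612962) and 4.46 in replicate 3 (13611898 to 13612994). The ranks were 35, 34 and 33 in the 3 lists, and the summits lay within 92 bp of each other, outside the hairpin and within 1000 bp of it. No protein-coding gene lay within 3000 bp of these summits. MIR396A had no peak in any list.

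Among the GIF genes, only GIF1 had a strong site. GIF3 scored 2.14, 1.95 and 2.20 in replicates 1, 2 and 3, with AT4G00870 nearer to the summits. GIF2 had a peak in replicate 2 alone, at 1.89, the lowest score of that list. Of the 5 TCP genes, TCP4, a factor known to raise miR396 levels, scored 2.52, 2.36 and 2.32 and TCP2 scored 1.88, 1.98 and 2.20. The TCP2 summits were nearer to AT4G18395 than to TCP2. None of the 3 miR319 genes had a peak in every list, against 8.91% of miRNA genes. Nor did any of the 4 SWI/SNF genes, against 6.73% of protein-coding genes. Groups this small cannot be told apart from such shares. CRF2, a cytokinin response factor, had low peaks in each list (highest 1.93, 1.97 and 1.95) but no region common to all 3. The AINTEGUMENTA gene ANT, an organ growth regulator and a neighbour of GRF2, had peaks in replicates 2 and 3 (1.89 and 1.87) that were the lowest scores of their lists. These were separate sites on opposite sides of ANT, and the summit of replicate 2 lay inside SQE3.

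**Figure D5:**
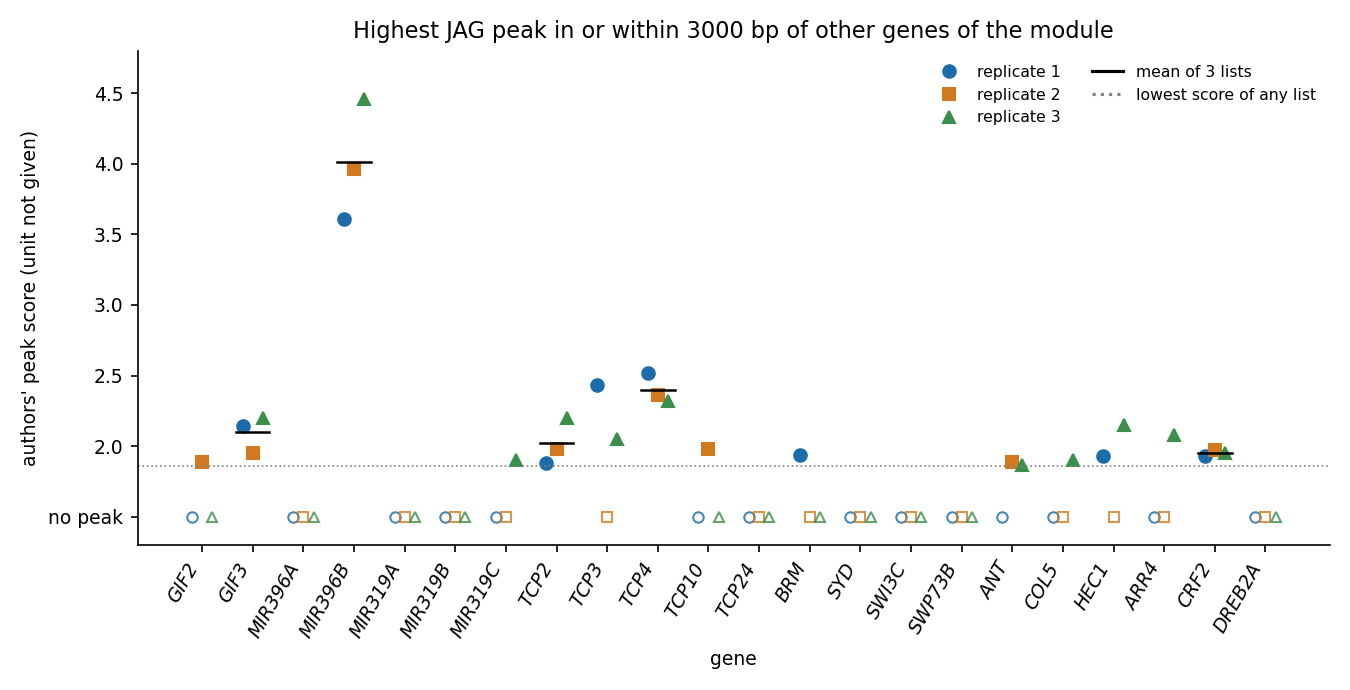
The highest JAG peak in or within 3000 bp of 22 other genes of the module is plotted as the authors' score (vertical axis, unit not given) for replicates 1, 2 and 3. Black lines are means of 3 lists, open symbols mark lists with no peak, and the dotted line is the lowest score of any list (1.86). MIR396B stands alone at 3.61 to 4.46, and no other gene of the 22 passes 2.52.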

How the data were processed

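Chromatin immunoprecipitation with sequencing was done on 3 JAG-GFP and 3 wild-type samples. The authors deposited 1 peak list per replicate number, with start, end, width, summit and a score per peak, per the file headers. No source used here states the unit of the score, the peak caller, its threshold or the control. The submitters' processing notes name CASAVA 1.8 and TAIR10, and positions are printed as the lists give them. Genes were named from the RefSeq table of assembly TAIR10.1, in which all 10 members and all 22 other genes were found. No coordinate of that table is printed.

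Summits were assigned to genes within 3000 bp with Python 3.11.15 and pandas 2.3.3. Genes on chromosome 1 past position 23827070 were left out of the background, which held 25680 genes. The counting was tested on simulated peaks. No statistical test was made. The 10 members, the list of 22 and the rules for naming genes were chosen with earlier results of these data known. All members are named, and of the 22 those with a peak in every list, plus GIF2, ANT and MIR396A, named after their values were seen. Alternatives were other windows, stricter thresholds, other assignments and leaving out each replicate. No sequence is shown, since none was used here.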

Additional observations from a re-analysis of the deposited data

How the results depend on the processing

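How many of the 10 genes had a peak in all 3 lists (7) depended on the window and the strictness, and so did the share of all genes (6.73%). A window of 500 bp gave 2 members (GRF8 and GIF1) against 2.09% of genes, 1000 bp gave 3 (with GRF6) against 3.26%, and 5000 bp gave 7 against 10.5%. The highest-scoring 50% of each list gave 4 (GRF5, GRF6, GRF8 and GIF1) against 3.73%, and the highest 25% gave 2 (GRF5 and GIF1) against 2.02%. Counting each peak for its nearest gene alone gave 4 (GRF4, GRF6, GRF8 and GIF1) against 3.1%. Any overlap of a peak with the window gave 7 against 7.8%. Requiring peaks to overlap by 50% gave 3 (GRF5, GRF6 and GIF1) against 3.84%, and merged regions gave 6 against 6.24% (both shares added after the data were seen). Without replicate 1, 2 or 3 in turn the count was 7 each time, and the share of genes was 8.45% to 9.24%. Leaving out a list asks for a peak in the remaining lists alone, so these counts could not fall below 7. Keeping the end of chromosome 1 gave 6.3%.

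Members with a peak in at least 1 list (9) fell to 4 at 500 bp, and other settings gave 6 to 9. The matching share of all genes was taken only at the main setting (25.9%). The counts under the other settings thus have no background to be read against. The 5 of 22 module genes (6.73% of protein-coding genes) became 1 at 500 bp (2.09%), 2 at 1000 bp (3.26%) and 9 at 5000 bp (10.5%). They became 2 with the highest 50% (3.73%), 1 with the highest 25% (2.02%) and 2 with the nearest gene alone (3.1%). All shares in brackets are of protein-coding genes, while the 22 include miRNA genes. A count of 1 of 22 is too small to set apart from such shares. MIR396B passed at 1000 bp and with both stricter thresholds, but not at 500 bp or with an overlap of 50%, where TCP4 alone passed. It also passed as the nearest gene, sought among protein-coding genes and the miRNA genes of the 22 alone. With no protein-coding gene within 3000 bp of its summits, that pass was fixed in advance. By percentile GRF3 moved from place 5 to 6. No paired analysis was possible because no result came from a test and each list already stands for 1 replicate number.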
